A study of Rattus norvegicus with 24 samples.

Results

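The histone deacetylases Hdac1, Hdac2, Hdac3, Hdac4, Hdac5, Hdac6, Hdac7, Hdac8, Hdac9 and Hdac11 were taken by gene name from the 23950 genes measured by RNA-Seq in the rat nucleus accumbens (NAc). These 10 genes were listed by name, with no cut-off on a measured value. Earlier results of these data were known when they were chosen. Of the 10 genes, 9 were found by name. The row for Hdac6 carried a placeholder name and was matched through its RefSeq gene ID and its description as histone deacetylase 6. All 10 had values in all 24 libraries and passed the filter on low values in every comparison.

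The NAc was sampled from Sprague Dawley rat pups at postnatal day 14 (P14), 4 pups from separate litters in each of 6 groups. In utero oxycodone (IUO) pups descended from dams (F0) gavaged with oxycodone, an opioid analgesic, from before mating through gestation to weaning, at 10 mg/kg per day rising to 15 mg/kg per day. Postnatal oxycodone (PNO) pups descended from dams gavaged with 15 mg/kg per day from birth of the litter to weaning, and saline (SAL) pups from dams given saline. F1 pups were the offspring of these dams, and F2 pups were the offspring of F1 females mated with naive males, with no further dosing of the F1 animals. Pups were of either sex, with no sex given for each pup, and the NAc was cut from the whole brain in a matrix, so neighbouring tissue could enter a sample.

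Histone deacetylases remove acetyl groups from lysines of histones and other proteins, which as a rule favours compact chromatin and lower transcription. Class I enzymes (Hdac1, Hdac2, Hdac3, Hdac8) are mostly nuclear and work in repressor complexes, while class IIa enzymes (Hdac4, Hdac5, Hdac7, Hdac9) shuttle between nucleus and cytoplasm with neuronal activity and hold MEF2 factors in check. Hdac6 of class IIb acts on tubulin in the cytoplasm, and Hdac11 is the sole class IV enzyme. In the NAc, class IIa enzymes, Hdac5 above all, are known as regulators of responses to drugs of abuse.

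Hdac4, Hdac7, Hdac9 and Hdac6 were low together in the same libraries, described further on, while the class IIa gene Hdac5 was not, and the 100 bases before the RefSeq start of these 5 genes are printed for that reason. Sequences come from RefSeq on GRCr8, run 5′ to 3′ on the strand of the gene, and carry in capitals the GC box (GGGCGG, or CCGCCC on the other strand) and the CCAAT box (CCAAT, or ATTGG).
Hdac4, chr9:100197638-100197737, minus strand: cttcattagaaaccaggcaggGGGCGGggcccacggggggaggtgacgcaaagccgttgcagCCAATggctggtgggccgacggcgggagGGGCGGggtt
Hdac7, chr7:130841018-130841117, minus strand: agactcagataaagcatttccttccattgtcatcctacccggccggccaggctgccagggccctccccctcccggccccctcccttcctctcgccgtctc
Hdac9, chr6:57052572-57052671, minus strand: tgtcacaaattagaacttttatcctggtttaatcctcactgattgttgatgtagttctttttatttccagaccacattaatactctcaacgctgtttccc
Hdac6, chrX:17223075-17223174, plus strand: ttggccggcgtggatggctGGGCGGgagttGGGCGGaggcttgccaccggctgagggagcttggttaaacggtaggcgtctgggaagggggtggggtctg
Hdac5, chr10:87688055-87688154, minus strand: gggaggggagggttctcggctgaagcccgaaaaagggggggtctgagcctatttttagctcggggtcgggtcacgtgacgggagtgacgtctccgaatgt

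The table of promoters held 9 of the 10 genes. A GC box lay in this window in 4 of the 9, namely Hdac1, Hdac2, Hdac4 and Hdac6, against 21.6% of 33469 promoters. A CCAAT box lay in that of Hdac4 alone, against 17.1% of promoters. The letters TGACG or CGTCA, which form the core of a cAMP response element, lay in those of Hdac1, Hdac4 and Hdac5, against 10.2% of promoters. Windows of Hdac1 and Hdac2 held 11 CpG each, those of Hdac3, Hdac4 and Hdac5 8 each, that of Hdac6 7 and that of Hdac7 5. Those of Hdac8 and Hdac9 held 1 each, beside a median of 3 over all promoters. None of these 3 motifs was shared by all 4 of the genes that were low together.

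Levels are given as FPKM (fragment counts scaled to transcript length and library size), which is a level per length and so allows genes to be set side by side. Hdac11 was the highest, at a mean of 92.9 ± 16.6 FPKM (SD, n = 24), which was percentile 96.5 of all genes measured. Hdac5 (40.6 ± 4.66), the NCoR partner Hdac3 (38.9 ± 3.52) and Hdac2 (37.2 ± 5.76) followed. Hdac1, the close paralogue of Hdac2, had 14.8 ± 2.26 FPKM and Hdac6 had 13.5 ± 2.79 FPKM. Lower still were Hdac4 at 4.72 ± 1.54 FPKM and Hdac7, known for its part in endothelial cells, at 4.62 ± 1.15 FPKM. Hdac8, an enzyme that deacetylates cohesin, had 1.74 ± 0.579 FPKM and Hdac9 had 1.54 ± 0.541 FPKM. A separate row for the Hdac1-like copy Hdac1l had a mean of 0.425 FPKM, and reads could be divided between it and Hdac1.

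Of neighbours by mean level, 4 pairs held their order in all 24 libraries. These were Hdac11 above Hdac5, Hdac2 above Hdac1, Hdac6 above Hdac4, and Hdac7 above Hdac8. Genes further apart were not always so ordered. Hdac4 lay below Hdac8 in F2 PNO replicate 1 (0.65 against 1.41 FPKM) and in F2 IUO replicate 4 (1.63 against 1.74 FPKM). The other neighbours did not hold their order from library to library. Hdac5 exceeded Hdac3 in 16 of 24 libraries, Hdac3 exceeded Hdac2 in 15, Hdac1 exceeded Hdac6 in 15, Hdac4 exceeded Hdac7 in 11, and Hdac8 exceeded Hdac9 in 14. The ratio of Hdac2 to Hdac1 had a median of 2.47 over the libraries and ranged from 1.86 to 3.66. The summed level of the 10 genes ranged from 207.6 to 309.8 FPKM. Class I made up 37.1% of it on average, class IIa 20.6%, Hdac6 5.36% and Hdac11 36.9%. The spread within groups was smallest for Hdac3, with an SD of 0.13 on the log2(FPKM + 0.1) scale, and largest for Hdac4, at 0.71.

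**Figure D1:**
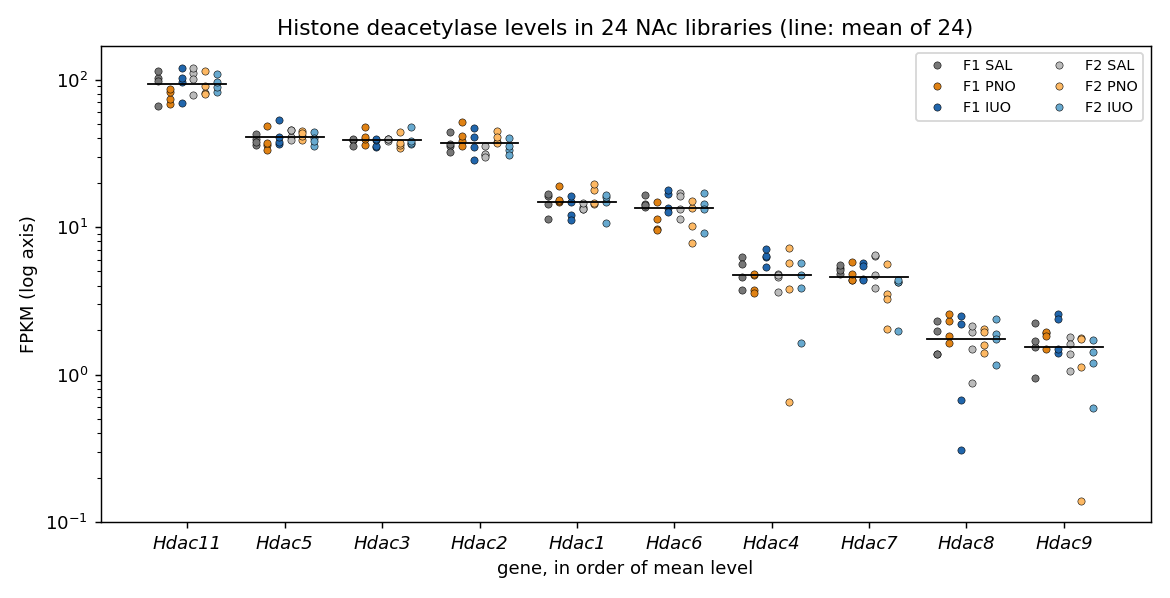
FPKM of the 10 histone deacetylases on a log axis, ordered by mean level, with 1 point per library coloured by group and a line at the mean of 24 libraries. Hdac11 sits highest at a mean of 92.9 FPKM, Hdac8 and Hdac9 lowest at 1.74 and 1.54 FPKM, and single points far below the rest appear for Hdac4, Hdac8 and Hdac9.

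Before any comparison, a few libraries stood apart. Over 13677 genes, the mean Spearman correlation of a library with the other 23 was 0.907 for F2 PNO replicate 1 and 0.931 for F2 IUO replicate 4, against 0.94 to 0.959 for the others. F2 PNO replicate 1 had the highest summed FPKM over all genes (766781, with 535866 to 709207 in the others), and F2 IUO replicate 4 had the most genes listed at 0 (7532, with 4782 to 7176 in the others). The number of reads per library is not in the files, so counting error is unknown. Markers of striatal projection neurons were present throughout, with a summed level over 10 genes from 429.5 to 1398 FPKM. The summed level of choroid plexus markers ranged from 6.06 to 12289 FPKM and that of thalamus markers from 16.8 to 265.6 FPKM, so tissue beyond the NAc was represented unevenly. In such bulk tissue, fewer cells of a type and less RNA per cell cannot be told apart.

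Among the 10 genes, those libraries stood apart in class IIa and Hdac6 but not in Hdac5. Hdac4 was 0.65 FPKM in F2 PNO replicate 1 and 1.63 FPKM in F2 IUO replicate 4, and between 3.59 and 7.21 FPKM in the other 22 libraries. Hdac9 was 0.14 and 0.59 FPKM in the same libraries and at least 0.95 FPKM elsewhere. Hdac7 was 2.05 and 1.98 FPKM, and at least 3.24 FPKM elsewhere. For each of these genes the 2 libraries were the lowest of 24. Hdac6 was 7.8 and 9.17 FPKM there, also the lowest of 24, with the next library at 9.54 FPKM. Hdac5 was 38.9 and 38.3 FPKM in them, inside its range of 33.3 to 53.6 FPKM, and Hdac11 was 114 and 95.7 FPKM. In F2 PNO replicate 1 the summed level of 6 neuronal markers was 959.5 FPKM, the lowest of 24 libraries, against a median of 1745 in the others, whereas in F2 IUO replicate 4 it was 1905 FPKM. The 10 oligodendrocyte markers summed to 4007 FPKM in F2 PNO replicate 1, the highest of 24 libraries, against 894.8 to 2555 FPKM in the others. Its 7 cortical excitatory neuron markers summed to 24.8 FPKM, against a median of 205.1 FPKM in the others. In F2 IUO replicate 4 these lists summed to 1507 and 291.3 FPKM. The summed level of 6 endothelial and mural cell markers was lowest in these 2 libraries, at 11.4 and 9.86 FPKM, against a median of 19.6 FPKM in the others. The part of cell makeup or library quality in the low values was not tested.

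**Figure D2:**
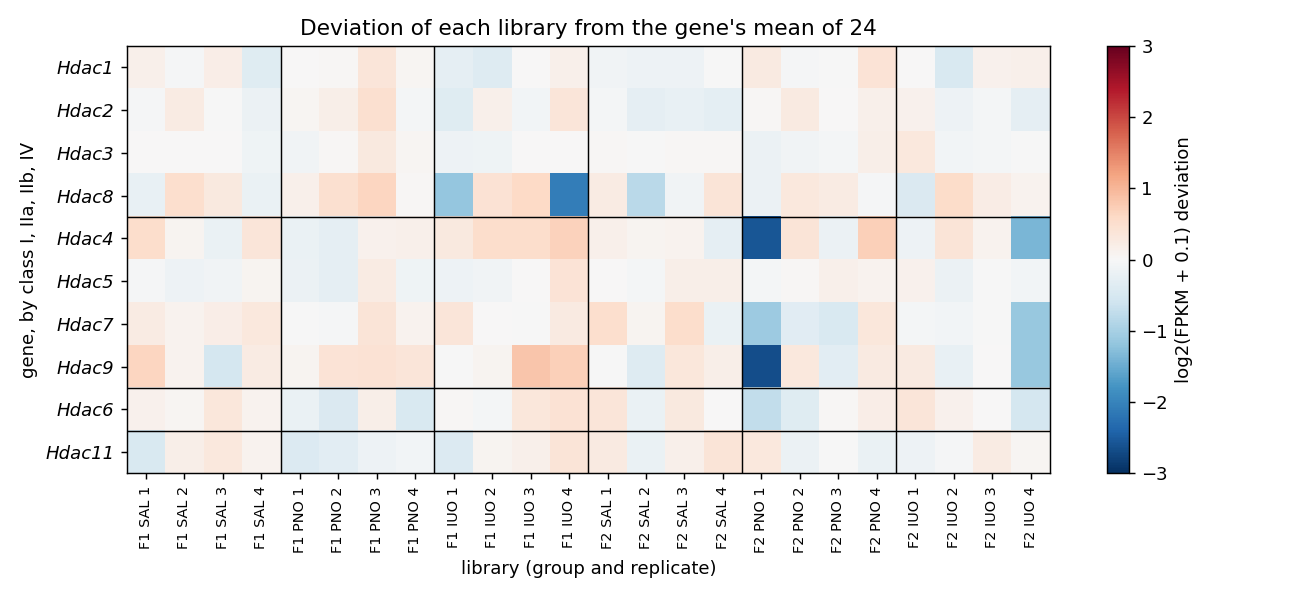
Deviation of log2(FPKM + 0.1) in each of the 24 libraries (columns, 4 per group) from the mean of each gene (rows, by class), in red where higher and in blue where lower. Hdac4, Hdac7 and Hdac9 are lowest in F2 PNO replicate 1 and F2 IUO replicate 4, where Hdac5 lies near its mean, and Hdac8 is lowest in F1 IUO replicates 4 and 1.

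Over the 24 libraries, which share preparation and depth within a sample, Hdac4 and Hdac9 ran most closely together, with Pearson's r = 0.889 and Spearman's rho = 0.53 on the log2 scale. Hdac4 and Hdac7 had r = 0.782, Hdac7 and Hdac9 r = 0.716, and Hdac7 and Hdac6 r = 0.703. Over the 22 libraries without the 2 low ones these were 0.455, 0.32, 0.183 and 0.456. The close relation of the 4 genes thus rested largely on 2 libraries. The genes most like Hdac4 over the 24 libraries were Ubr3 (r = 0.977), Nav3 (r = 0.972) and Atrnl1 (r = 0.971). Those most like Hdac9 were Ppm1e, Plcxd2 and Prkar2a, with r from 0.953 to 0.958, and those most like Hdac7 were Gigyf1, Yeats2 and Zfp839, from 0.911 to 0.93. Usp19, Unk and Dennd4b were most like Hdac6, from 0.889 to 0.89.

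The other genes had looser neighbours. Ndrg2, an astrocyte gene, was most like Hdac11 (r = 0.864), followed by Cygb (0.855) and Rnd2 (0.84). The astrocyte marker list as a whole had r = 0.217 with Hdac11. Hsp90b1, Krcc1 and Set were most like Hdac2, with r from 0.851 to 0.86. Ift52, Spa17 and Pttg1ip were most like Hdac1 (0.795 to 0.825), Mms19, Ppm1g and Pak4 most like Hdac3 (0.8 to 0.812), Mbip and Fbxo4 among those most like Hdac8 (0.797 and 0.78), and Paqr7, Ttc5 and Pheta1 most like Hdac5 (0.807 to 0.814). Of the cell type and tissue marker lists, the choroid plexus list had the largest r with Hdac3 (0.656), the oligodendrocyte precursor list with Hdac6 (0.619) and Hdac11 (0.606), and the neuron list with Hdac4 (0.747) and Hdac9 (0.772), where rho was 0.249 and 0.267. For Hdac7 the largest r was that of the endothelial and mural cell list (0.627, with rho = 0.583).

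To determine whether the deacetylases differed with exposure, IUO, PNO and SAL were compared within each generation, over both generations, and between generations. In all 15 comparisons, 0 of 10 genes had an adjusted p under 0.05 (limma, Benjamini-Hochberg over all genes tested), and 6 of the 150 gene and comparison pairs had an unadjusted p under 0.05. Of all genes, 3.9% to 19.9% had an unadjusted p under 0.05, depending on the comparison, and 0% to 0.95% an adjusted one. Within a generation no gene reached a 1.5-fold ratio of group mean FPKM. The largest such ratio was that of Hdac7 in F2 PNO against F2 SAL, at 1.49-fold lower, which did not pass the test. Mean log2 values, on which the tests were run, gave another order. The largest difference was that of Hdac8 in F1 IUO against F1 PNO, at -0.88 (95% interval from -2.12 to 0.36, unadjusted p = 0.144 by limma). Next came Hdac8 in F1 IUO against F1 SAL (-0.64), then Hdac7 and Hdac9 in F2 PNO against F2 SAL (-0.62 each). On that scale these lay beyond 1.5-fold, and none passed. Comparisons of one generation share libraries (each SAL group serves IUO and PNO), so their values are given side by side only.

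In F1, Hdac6 was lower in PNO pups than in controls by the unadjusted test only. Hdac6, the tubulin deacetylase, was 14.3, 13.7, 16.6 and 14.2 FPKM in F1 SAL and 11.4, 9.76, 14.8 and 9.54 FPKM in F1 PNO. PNO values were the lower in all but 1 library, F1 PNO replicate 3, which exceeded 3 of the 4 controls, so the groups overlapped. The means were 14.7 ± 1.28 and 11.4 ± 2.42 FPKM (SD, n = 4), and the log2 difference was -0.39 (SE 0.15, unadjusted p = 0.0273, adjusted p = 0.306 by limma). The exact permutation test gave p = 0.114, where the smallest two-sided p that 4 against 4 libraries allow is 0.0286.

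Hdac6 was the only one of 10 genes with an unadjusted p under 0.05 in F1 PNO against F1 SAL, where 13.9% of 17494 genes had one and 0% had an adjusted p under 0.05. The groups overlapped for all 10 genes, while 8.27% of all genes did not overlap. Thalamus markers were higher in F1 PNO for 6 of 6 genes, with a summed level of 101.9 to 265.6 FPKM against 17.4 to 126.2 in F1 SAL, and none of the 6 was listed at 0. Oligodendrocyte precursor markers were lower for 5 of 6 genes, at 150.7 to 205.4 against 186.2 to 260.7 FPKM. With the thalamus list as a covariate the Hdac6 difference was -0.24 (unadjusted p = 0.234). The groups differed in that list, so its level and exposure cannot be fully told apart here. Over the 24 libraries Hdac6 had r = 0.074 with the list. Without F1 SAL replicate 3, F1 PNO replicate 2 or F1 PNO replicate 4 the limma p of the Hdac6 difference was no longer under 0.05. It was 0.0726, 0.0755 and 0.08, with differences of -0.33, -0.32 and -0.31. The median log2 difference over the 10 genes was 0.04, and over all genes -0.05. Hdac11 was lower by the means, 77.5 ± 7.93 against 95.4 ± 20.4 FPKM, with overlapping groups and adjusted p = 0.467 by limma.

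No such difference appeared in F1 IUO against F1 SAL. There 0 of 10 genes had an unadjusted p under 0.05 (3.91% of 17380 genes had one), 0 had an adjusted one (0% of all genes), and 0 of 10 had groups that did not overlap (2.54% of all genes). Hdac6 was 15.2 ± 2.51 FPKM in F1 IUO, with a log2 difference of 0.03 and a 95% interval from -0.28 to 0.34. Hdac5 was 42.0 ± 7.86 against 38.9 ± 2.88 FPKM, a log2 difference of 0.10 with an interval from -0.20 to 0.39. Hdac4 was 6.26 ± 0.68 against 5.06 ± 1.12 FPKM, with an interval from -0.09 to 0.74.

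Hdac8 divided the F1 IUO group. It was 0.67, 2.21, 2.48 and 0.31 FPKM in F1 IUO, and 1.38, 2.32, 1.99 and 1.39 FPKM in F1 SAL. Replicates 1 and 4 of F1 IUO were the lowest of all 24 libraries, and replicates 2 and 3 were within or above the range of the controls. Replicates 1 and 4 were also the F1 libraries with the most genes listed at 0 (7176 and 6941, against 4848 to 5764 in the other 10). In F2, by contrast, IUO replicates 4 and 2 had 7532 and 6892 genes listed at 0, with Hdac8 at 1.74 and 2.4 FPKM. The log2 difference of Hdac8 in F1 IUO from F1 SAL was -0.64, with an interval from -1.90 to 0.62. Without F1 IUO replicates 1 and 4 it was 0.42 (unadjusted p = 0.173, limma). Hdac8 and Hdac6 lie on the X chromosome, and the Y-linked markers were at 0.15 to 37.3 FPKM in F1 IUO against 27.2 to 36.1 FPKM in F1 SAL, so F1 IUO mixed high and low libraries and F1 SAL held high ones only. With the level of Y-linked markers as a covariate, the difference of F1 IUO from F1 SAL was 0.26 for Hdac8 (unadjusted p = 0.714), the opposite sign, and -0.23 for Hdac6 (unadjusted p = 0.159). In F1 PNO against F1 SAL the same covariate gave -0.46 for Hdac6 (unadjusted p = 0.0328).

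Between the exposed groups of F1, Hdac4 was higher in every IUO pup than in any PNO pup, though its adjusted p did not pass. Hdac4, a corepressor that moves out of the nucleus on calcium signals, was 5.39, 6.26, 6.34 and 7.05 FPKM in F1 IUO and 3.77, 3.59, 4.75 and 4.84 FPKM in F1 PNO. The groups did not overlap. The means were 6.26 ± 0.68 and 4.24 ± 0.649 FPKM (SD, n = 4), with a log2 difference of 0.56 (SE 0.16, unadjusted p = 0.00591, adjusted p = 0.150 by limma). The exact permutation test gave p = 0.0286, the smallest it can give. The unadjusted limma p of Hdac4 stayed under 0.05 in 17 of 18 alternatives. The exception was the fit of all 24 libraries, which takes in the spread of the F2 groups, where p was 0.246.

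Hdac6 also had a higher mean in IUO than in PNO pups of F1, at 13.5, 12.6, 16.7 and 17.8 FPKM in IUO. These values overlapped those of PNO through F1 PNO replicate 3 alone. The log2 difference was 0.42 (SE 0.17, unadjusted p = 0.0374, adjusted p = 0.270 by limma), and the exact permutation test gave p = 0.0857. Its limma p was no longer under 0.05 in 10 of 18 alternatives. The p lay between 0.0627 and 0.103 without F1 PNO replicate 1, 2 or 4 or F1 IUO replicate 3 or 4. It was 0.0681 with upper-quartile rescaling, where the difference was 0.30, and 0.0511 with the level of Y-linked markers as a covariate, where it was 0.35. Thus 2 of 10 genes had an unadjusted p under 0.05, both higher in IUO, against 16.5% of 17306 genes, 1 of 10 did not overlap, against 10.5%, and 0 had an adjusted p under 0.05, against 0.133%. Of the 6 thalamus markers 1 was higher in IUO (27.9 to 111.9 against 101.9 to 265.6 FPKM), and of the 6 oligodendrocyte precursor markers all were (197.7 to 251.2 against 150.7 to 205.4 FPKM). With the thalamus list as a covariate the difference was 0.64 for Hdac4 (unadjusted p = 0.0247) and 0.46 for Hdac6 (unadjusted p = 0.113). Striatal projection neuron markers summed to 878.8 to 1238 FPKM in F1 IUO and 560.7 to 778.7 FPKM in F1 PNO. Microglia markers summed to 159.5 to 194.5 and 115.1 to 145.8 FPKM, and hypothalamus markers to 46.1 to 162 and 5.49 to 15.2 FPKM. These lists did not overlap between the groups, whereas the ranges of the other marker lists did. The part of the oligodendrocyte precursor markers and of these lists was not tested. With upper-quartile rescaling the split was 1 higher and 2 lower, as Hdac1 (-0.37, unadjusted p = 0.0106) and Hdac3 (-0.26, unadjusted p = 0.0233) then joined Hdac4 (0.44, unadjusted p = 0.016), with the median of all genes at -0.08. The median log2 difference of the 10 genes was 0.07, and that of all genes 0.03.

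In F2, Hdac2 was higher in PNO pups than in controls by the unadjusted test only. Hdac2, the class I enzyme known to restrain synapse and memory genes in neurons, was 35.5, 30.6, 31.4 and 29.9 FPKM in F2 SAL and 37.4, 44.6, 37.4 and 40.7 FPKM in F2 PNO. Every PNO pup exceeded every control. The means were 31.8 ± 2.5 and 40.0 ± 3.41 FPKM (SD, n = 4), and the log2 difference was 0.33 (SE 0.11, unadjusted p = 0.0132, adjusted p = 0.386 by limma). The exact permutation test gave p = 0.0286, the smallest it can give. The unadjusted limma p of Hdac2 stayed under 0.05 in 16 of 17 alternatives. The exception was rescaling of each library to a sum of 1000000, where the difference was 0.24 (unadjusted p = 0.136).

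Hdac2 was the only one of 10 genes with an unadjusted p under 0.05 in F2 PNO against F2 SAL, where 10.8% of 17367 genes had one, and the only one without overlap, against 7.01%. None of the 10 had an adjusted p under 0.05, against 0.00576% of all genes. Hdac1, its paralogue, was 16.5 ± 2.52 against 13.7 ± 0.647 FPKM, with a log2 difference of 0.26 and an interval from -0.04 to 0.56. Hdac6 was 11.6 ± 3.28 against 14.5 ± 2.61 FPKM, with a log2 difference of -0.34 (unadjusted p = 0.165), and -0.17 without F2 PNO replicate 1. Oligodendrocyte precursor markers were lower in F2 PNO for 5 of 6 genes, at 166 to 240.4 against 226.4 to 267 FPKM in F2 SAL, and none was listed at 0. Their part in these values was not tested. The median log2 difference of the 10 genes was -0.12, and that of all genes -0.08.

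Hdac7 was lower by the means in both exposed groups of F2. It was 6.39, 4.73, 6.5 and 3.88 FPKM in F2 SAL, 2.05, 3.5, 3.24 and 5.64 FPKM in F2 PNO, and 4.25, 4.23, 4.41 and 1.98 FPKM in F2 IUO. F2 SAL replicate 4 lay among the exposed pups and F2 PNO replicate 4 among the controls, so the groups overlapped. The log2 differences from F2 SAL were -0.62 in PNO (SE 0.31, unadjusted p = 0.077) and -0.56 in IUO (SE 0.29, unadjusted p = 0.0898). Without F2 PNO replicate 1 the PNO difference was -0.39 (unadjusted p = 0.173), and without F2 IUO replicate 4 the IUO difference was -0.29 (unadjusted p = 0.21). Endothelial and mural cell markers were lower for 6 of 6 genes in F2 IUO, at 9.86 to 16.8 FPKM against 17.2 to 24.7 FPKM in F2 SAL, with 1 listed at 0 in some library, and for 4 of 6 in F2 PNO. Their part in the Hdac7 values was not tested. Y-linked markers summed to 0.03 to 2.57 FPKM in F2 SAL (median 1.08) and 0.57 to 36.7 FPKM in F2 IUO (median 32.6). Sex of the pups and exposure thus cannot be fully told apart between F2 IUO and F2 SAL.

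The means of Hdac4 and Hdac9 in F2 rested on single libraries. Hdac4 was 4.35 ± 2.83 FPKM in F2 PNO, and 5.58 ± 1.69 FPKM (SD, n = 3) without replicate 1, against 4.44 ± 0.557 FPKM in F2 SAL. The log2 difference was accordingly -0.43 with that library and 0.29 without it, and neither passed the test (unadjusted p = 0.505 and unadjusted p = 0.243, limma). In F2 IUO it was -0.28 with replicate 4 and 0.09 without. Hdac9, whose short form MITR lacks the catalytic domain, went from -0.62 to 0.07 in F2 PNO against F2 SAL when replicate 1 was left out.

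In F2 IUO against F2 SAL, 0 of 10 genes had an unadjusted p under 0.05 (8.49% of 17097 genes), 0 had an adjusted one (0%) and 0 had groups without overlap (5.11%). The narrowest interval in that comparison was that of Hdac5, with a log2 difference of -0.11 from -0.35 to 0.12, and Hdac3 had 0.02 from -0.22 to 0.26. Hdac5 had r = -0.525 with the Y-linked list over the 24 libraries, and the levels of that list differed between these groups, as given above. In F2 IUO against F2 PNO, likewise 0 of 10 genes had an unadjusted p under 0.05 (7.07% of 17090 genes), 0 an adjusted one (0%) and 0 had groups without overlap (4.74%). Hdac4 in that comparison had an interval from -1.41 to 1.72, so that a 2-fold difference in either direction lay within it.

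**Figure D3:**
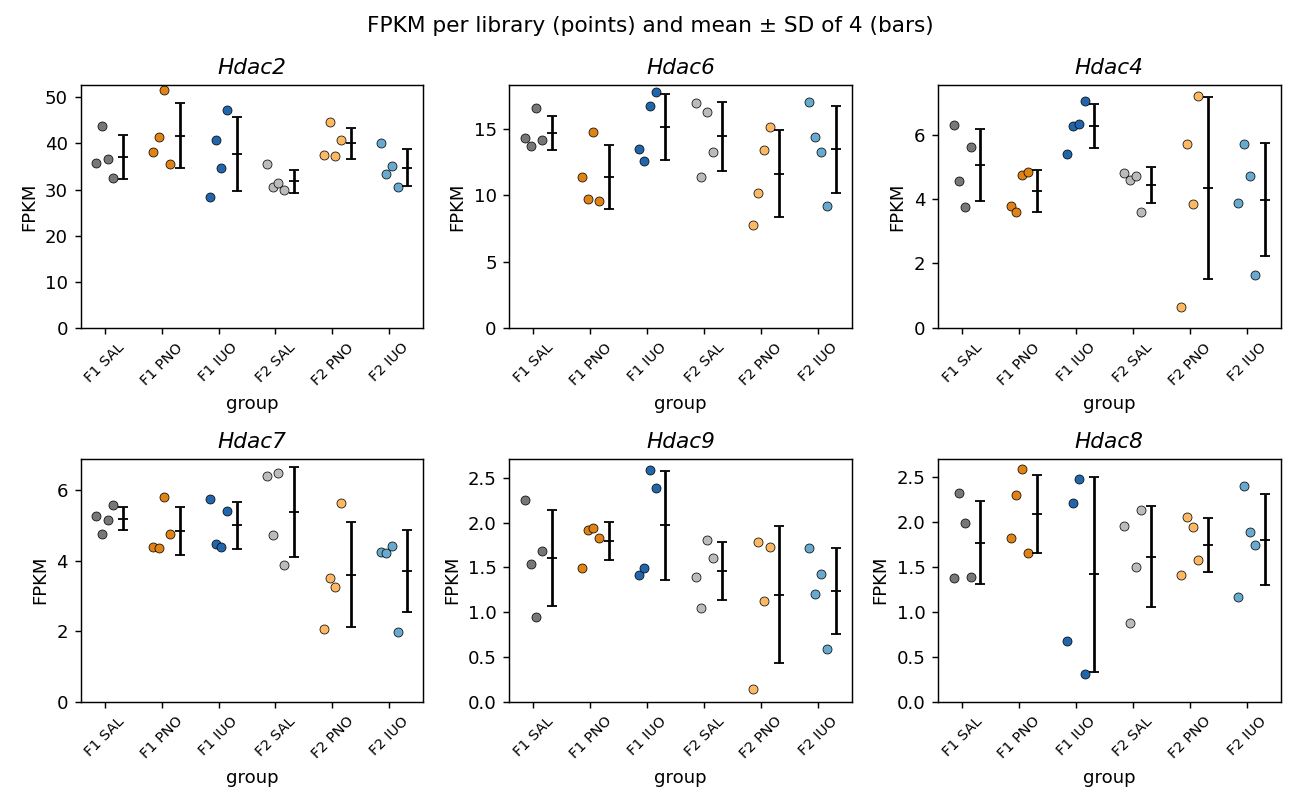
FPKM of 6 deacetylases in the 6 groups, with 1 point per library (replicates 1 to 4 from left to right) and a bar for the mean ± SD of 4. F2 PNO lies above F2 SAL for Hdac2, F1 IUO lies above F1 PNO for Hdac4, and the single low points of F2 PNO and F2 IUO and the 2 low points of Hdac8 in F1 IUO widen the bars.

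Over both generations, with generation as a term, PNO and SAL had the smallest unadjusted p for Hdac2 and Hdac6, while by size Hdac6 was followed by Hdac7 and Hdac4, which did not pass. Hdac2 differed by 0.24, higher in PNO, on the log2 scale (SE 0.09, unadjusted p = 0.0114, adjusted p = 0.138 by limma), with 0.16 in F1 and 0.33 in F2. In F1 the Hdac2 values overlapped, at 35.6 to 51.5 FPKM in PNO and 32.4 to 43.8 FPKM in SAL. Hdac6 differed by -0.36, lower in PNO (SE 0.14, unadjusted p = 0.0165, adjusted p = 0.159 by limma), with -0.39 in F1 and -0.34 in F2, and the difference was -0.28 (unadjusted p = 0.033) without F2 PNO replicate 1. Rescaled to a sum of 1000000, Hdac2 differed by 0.17 (unadjusted p = 0.13) and Hdac6 by -0.44 (unadjusted p = 0.0188). With the thalamus list as a covariate, Hdac2 differed by 0.25 and Hdac6 by -0.37 (unadjusted p = 0.0139 and unadjusted p = 0.0208, limma).

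These were 2 of 10 genes with an unadjusted p under 0.05, 1 higher and 1 lower, against 19.9% of 17268 genes. The split was 2 higher and 1 lower with upper-quartile rescaling, where Hdac1 was added, and 0 higher and 2 lower when rescaled to 1000000, where Hdac6 and Hdac11 were called. Without rescaling, 0 of 10 had an adjusted p under 0.05, against 0.95%. The median log2 difference of the 10 genes was -0.12, and that of all genes -0.06. Hdac1 was 0.20 higher (SE 0.10, unadjusted p = 0.0578), Hdac7 -0.36 (SE 0.18, unadjusted p = 0.0598) and Hdac11 -0.22 (SE 0.12, unadjusted p = 0.0761). As a share of the summed level of the 10 genes, class I took 42.2% in F1 PNO against 36.4% in F1 SAL, and 38.4% in F2 PNO against 33.7% in F2 SAL. Ranges of that share were 39.2 to 43.8% in F1 PNO and 32.4 to 40.7% in F1 SAL, and 35.7 to 40.9% in F2 PNO and 31.4 to 37.3% in F2 SAL, so they overlapped in both generations.

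IUO against SAL over both generations gave 0 of 10 genes at an unadjusted p under 0.05 (8.25% of 17102 genes) and 0 at an adjusted one (0.00585%). Hdac7 had the smallest unadjusted p (0.0952), with a log2 difference of -0.31, and of -0.16 (unadjusted p = 0.197) without F2 IUO replicate 4. IUO against PNO gave 0 of 10 at an unadjusted p under 0.05 (13.6% of 17032 genes) and 0 at an adjusted one (0.0235%). The nearest was Hdac6, 0.32 higher in IUO (SE 0.16, unadjusted p = 0.0582), which was 0.41 higher (unadjusted p = 0.0135) without F2 IUO replicate 4.

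**Figure D4:**
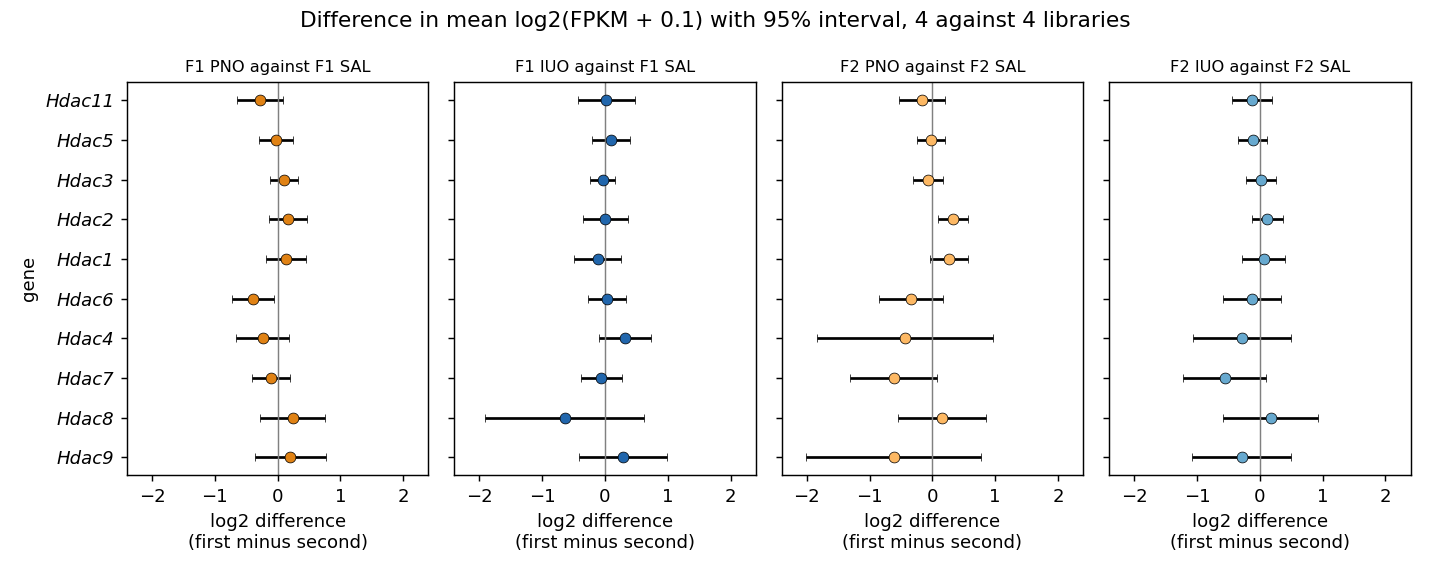
Log2 difference of each exposed group from the saline controls of its generation, as the difference in mean log2(FPKM + 0.1), with bars for the 95% interval. The intervals leave 0 for Hdac6 in F1 PNO (-0.39) and Hdac2 in F2 PNO (0.33), and are widest for Hdac4 and Hdac9 in F2 PNO and Hdac8 in F1 IUO.

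Whether an exposure effect differed between generations was tested as an interaction. For IUO against SAL, 0 of 10 genes had an unadjusted p under 0.05 (5.17% of 17102 genes) or an adjusted one (0%). For PNO against SAL the shares were 0 of 10 for both (3.9% of all genes unadjusted and 0% adjusted), and for IUO against PNO 0 of 10 for both (5.87% and 0%). Hdac7 had the smallest p for both exposures against SAL, with a log2 difference of effects, F2 minus F1, of -0.50 for IUO (unadjusted p = 0.157) and -0.51 for PNO (unadjusted p = 0.158). Hdac4 went from 0.32 in F1 to -0.28 in F2 for IUO against SAL, a difference of -0.60 (SE 0.41, unadjusted p = 0.165). These values rested on single libraries. Without F2 IUO replicate 4 the IUO differences were -0.23 for Hdac7 (unadjusted p = 0.365) and -0.23 for Hdac4 (unadjusted p = 0.397). The PNO difference for Hdac7 was -0.28 (unadjusted p = 0.345) without F2 PNO replicate 1 and -0.75 (unadjusted p = 0.0215) without F2 PNO replicate 4.

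The generations themselves were compared within each arm, where generation and any date of collection cannot be told apart. In SAL, 0 of 10 genes had an unadjusted p under 0.05 (8.48% of 17497 genes) or an adjusted one (0.0343%), with Hdac2 the nearest at -0.22 (unadjusted p = 0.077). All 4 F1 SAL libraries had Y-linked markers at 27.2 to 36.1 FPKM, and all 4 F2 SAL libraries had them at 0.03 to 2.57 FPKM, so sex of the pups and generation cannot be told apart in this arm. In PNO, 0 of 10 had an unadjusted p under 0.05 (4.76% of 17370 genes) or an adjusted one (0.0288%). In IUO, 0 of 10 had an unadjusted p under 0.05 (15% of 16916 genes) or an adjusted one (0%). There Hdac4 was nearest, at 3.98 ± 1.74 in F2 against 6.26 ± 0.68 FPKM in F1, a log2 difference of -0.77 (SE 0.35, unadjusted p = 0.0511), and -0.40 (unadjusted p = 0.0702) without F2 IUO replicate 4.

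The genes that work with or against the deacetylases were followed in 8 lists, namely the sirtuins, the Sin3, NuRD, CoREST and NCoR complexes, class IIa partners, acetyltransferases and readers of acetyl-lysine. None of them had an adjusted p under 0.05 in any comparison by limma. In PNO against SAL over both generations, 17 of 81 (21.0%) had an unadjusted p under 0.05, 6 higher and 11 lower, beside the 19.9% of all genes. Hat1, which acetylates new histones before their assembly, had the smallest, at 0.33 higher (unadjusted p = 0.000968, adjusted p = 0.0624). Kat6b was next among the acetyltransferases, at -0.39 (unadjusted p = 0.0171). Of class IIa partners, Sik3, a kinase that keeps these enzymes in the cytoplasm, was at -0.30 (unadjusted p = 0.00273, adjusted p = 0.0838), and Mef2d, a MEF2 factor they bind, at -0.60 (unadjusted p = 0.00337, adjusted p = 0.0896).

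Among the complexes in the same comparison, 1 of 5 genes of the NCoR list had an unadjusted p under 0.05 by limma, and it was lower. The median log2 difference of that list was -0.12, and its gene Tbl1xr1 was at 0.16 (unadjusted p = 0.142). Rbbp7, a histone chaperone shared by the Sin3 and NuRD complexes of Hdac1 and Hdac2, was at 0.22 (unadjusted p = 0.00591, adjusted p = 0.107). Sap130 of Sin3 was at -0.28 and Mta1 of NuRD at -0.21, with unadjusted p of 0.0144 and 0.0469. Phf21a and Rcor1 of CoREST were at -0.25 and 0.27 (unadjusted p = 0.0166 and unadjusted p = 0.0308). Sirt6 and Sirt7 were at -0.22 and -0.18 (unadjusted p = 0.0104 and unadjusted p = 0.0871), and the acetyl-lysine readers Smarca4 and Brd3 at -0.20 and -0.40 (unadjusted p = 0.0207 and unadjusted p = 0.0727).

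Elsewhere the lists stood as follows. Within F1, 16 of 81 partner genes (19.8%) had an unadjusted p under 0.05 in PNO against SAL, 14 of them lower, and 18 of 80 (22.5%) in IUO against PNO, 15 of them higher. The smallest p in these were those of Gatad2b of NuRD, at -0.48 in PNO against SAL (unadjusted p = 0.000656, adjusted p = 0.231), and of Hat1, at -0.36 in IUO against PNO (unadjusted p = 0.00629, adjusted p = 0.151). All genes stood at 13.9% and 16.5% in these comparisons, and their split by direction is not given here. The median log2 difference was -0.10 and 0.11 over the partner genes, and -0.05 and 0.03 over all genes. F1 IUO against F1 SAL had 2 of 82 (2.4%), beside 3.91%. Within F2 the counts were 6 of 81 (7.4%) in PNO against SAL, 3 of 81 (3.7%) in IUO against SAL and 3 of 81 (3.7%) in IUO against PNO, beside 10.8%, 8.49% and 7.07% of all genes. Hat1 had the smallest in F2 PNO against F2 SAL, at 0.35 (unadjusted p = 0.0223, adjusted p = 0.408). Over both generations they were 5 of 82 (6.1%) in IUO against SAL and 7 of 81 (8.6%) in IUO against PNO, beside 8.25% and 13.6%. Between generations they were 12 of 82 (14.6%) in SAL, 0 of 81 in PNO and 21 of 80 (26.2%) in IUO, 20 of them lower in F2, beside 8.48%, 4.76% and 15% of all genes. In IUO the median log2 difference, F2 minus F1, was -0.11 over the partner genes and -0.09 over all genes.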

How the data were processed

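Gene expression in the NAc of P14 rat pups was measured by RNA-Seq in 24 libraries, grouped by the submitters' treatment labels into 6 groups of 4. The authors deposited 1 table of FPKM values per library. StringTie gave these values after a sequencing company merged the transcriptomes of all samples. HISAT2, SAMtools and edgeR are also named in the submitters' processing notes. The genome build is not given in the sources used here, so the files' genes carry no coordinates. FPKM are not rescaled between libraries, and read depth cannot be recovered from them, so no counting interval is given.

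Values were tested as log2(FPKM + 0.1), on which fold changes of low genes are understated, with limma 3.58.1 in R 4.3.3 (lmFit, eBayes with a trend). Tests are two-sided, and p values were adjusted over all genes that reached 0.1 FPKM in 4 of 8, or 8 of 16, libraries. For single members an exact permutation test of 4 against 4 libraries was added. The procedure was tested on simulated data. The alternatives were a pseudocount of 1, other filters, upper-quartile rescaling, rescaling to a sum of 1000000, a single fit of 24 libraries, a replicate block, covariates of Y-linked or thalamus genes, and leaving out libraries. Python 3.11.15, pandas 2.3.3 and matplotlib 3.10.9 were used.

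The members and lists were chosen with earlier results of these data known. Named genes are the 10 members, the 3 genes most like each of them by Pearson's r among genes with a mean of at least 1 FPKM, and, from each partner list, genes with an adjusted p under 0.05 or else the 2 with the smallest p. To keep the text short these were named for PNO against SAL over both generations, and for other comparisons only the smallest of all lists, a choice made after values were seen. Hdac10 and listed genes without a row by that name, such as Sirt1, Ep300 and Kat2b, were not analysed here. A few genes that this rule takes in are not reported here.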

Additional observations from a re-analysis of the deposited data

Results flagged for a closer look

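Among the 60 sets of 4 libraries given by 10 genes and 6 groups, 5 held a library whose gap to its nearest neighbour took up more of the range than Dixon's 95% critical value for 4 samples. Chance flags about 1 in 20 such groups, or 3 of 60. Hdac3 accounted for 3 of the 5. Its lowest value in F1 SAL, 35.3 FPKM in replicate 4, had a ratio of gap to range of 0.88, and its lowest in F2 SAL, 38.4 FPKM in replicate 2, one of 0.853, in a group that spanned only 38.4 to 39.7 FPKM. Its highest in F2 IUO, 48.0 FPKM in replicate 1, had a ratio of 0.851, and choroid plexus markers summed to 12289 FPKM in that library, the highest of 24. Hdac1 was 19.0 FPKM in F1 PNO replicate 3, with a ratio of 0.935, where the other 3 libraries lay between 14.9 and 15.2 FPKM. Hdac7 was 1.98 FPKM in F2 IUO replicate 4, with a ratio of 0.926. That library was low in Hdac4, Hdac9 and Hdac6 as well. The part of tissue makeup in these values was not tested.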

How the results depend on the processing

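No gene had an adjusted p under 0.05 under any alternative (2850 gene and comparison pairs, smallest adjusted p 0.0671, Hdac6 in pooled PNO against SAL without F2 PNO replicate 4), and none of the 6 differences at an unadjusted p under 0.05 reversed. The log2 difference ranged from -0.52 to -0.24 for Hdac6 in F1 PNO against SAL, 0.44 to 0.68 for Hdac4 and 0.30 to 0.55 for Hdac6 in F1 IUO against PNO, and 0.24 to 0.42 for Hdac2 in F2 PNO against SAL. Counts of genes at an unadjusted p under 0.05 were less stable, and the cause was not tested. In F1 PNO against SAL the count of 1 became 0 with all 24 libraries in one fit and with the thalamus covariate, and in F1 IUO against PNO the count of 2 became 0 in the fit of 24. There it was 3 with upper-quartile rescaling, 1 higher and 2 lower. It stayed 2 with the Y chromosome covariate, where Hdac1, lower in IUO, took the place of Hdac6, and with the thalamus covariate, where Hdac11 did. Over all genes, 2438 of 17494 were counted in F1 PNO against SAL. That number was 1285 in the fit of 24 and 927 with the thalamus covariate. In F1 IUO against PNO, 2857 of 17306 were counted, 2070 in the fit of 24 and 2853 of 17272 with upper-quartile rescaling. In F2 PNO against SAL the count of 1 became 2 with upper-quartile rescaling, the fit of 24 and the Y chromosome covariate, and 0 after rescaling to a sum of 1000000. In F2 IUO against SAL 0 became 1 in the fit of 24, and in F2 IUO against PNO 0 became 2 with upper-quartile rescaling. Pooled IUO against SAL went from 0 to 1 with upper-quartile rescaling. Pooled IUO against PNO went from 0 to 3 with upper-quartile rescaling, 2 in the fit of 24, and 1 with the Y chromosome covariate, the thalamus covariate and, chosen after seeing the data, without F2 PNO replicate 1 and F2 IUO replicate 4 together. All genes in that comparison went from 2323 of 17032 to 3191 of 17007 with upper-quartile rescaling and 2780 in the fit of 24. They went to 2193 with the Y chromosome covariate and 2179 with the thalamus covariate. F2 against F1 went from 0 to 1 in SAL with upper-quartile rescaling, and from 0 to 1 in IUO with a pseudocount of 1, an FPKM of at least 1, upper-quartile rescaling and rescaling to a sum of 1000000. Upper-quartile rescaling put the median difference of all genes at -0.17 in F2 IUO against PNO, against -0.01 without it. With it 1487 of 17073 genes had an unadjusted p under 0.05 there, against 1208 of 17090 without it. Counts over all genes thus moved with the setting too, and are not given here for the other settings. A changed count of deacetylases therefore cannot be read as particular to them.

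Leaving out 1 library gave counts of 0 to 1 in F1 IUO against SAL, 0 to 2 in F1 PNO against SAL, 1 to 3 in F1 IUO against PNO, 1 to 2 in F2 PNO against SAL, 2 to 4 in pooled PNO against SAL, 0 to 2 in pooled IUO against PNO, 0 to 1 in F2 against F1 of each arm, and 0 to 1 in the interactions of PNO against SAL and IUO against PNO. With a replicate block, counts went from 0 to 1 in F2 IUO against SAL (Hdac7, unadjusted p = 0.0299), 0 to 1 in pooled IUO against SAL and in pooled IUO against PNO, 2 to 3 in F1 IUO against PNO (Hdac11, unadjusted p = 0.0296, added), and 2 to 4 in pooled PNO against SAL, where Hdac1 and Hdac11 were added. Same-numbered libraries correlated from -0.331 to 0.199 in their deviations and in no comparison was every pair over 0.1, so the numbers were not taken to pair the pups.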
